A study of Drosophila melanogaster with 3 samples.

Results

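The genes described here are 38 Drosophila melanogaster genes that encode Polycomb and Trithorax group proteins, out of 13968 protein-coding genes placed on the chromosome arms. The list names subunits of known complexes and was drawn up with earlier results of these data known, and all 38 were found in the annotation, 36 by symbol and 2 through a synonym (lid, annotated as Kdm5, and calypso, annotated as caly). The assay was chromatin immunoprecipitation of Elba2 followed by sequencing, in embryos aged 0 to 4 h, males and females pooled, in 3 biological replicates of 1 group. The embryos came from a transgenic line, strain CG9883-GFP, that stably expresses Elba2 with green fluorescent protein fused to its C-terminal end, and the description names an antibody to GFP. The antibody label itself reads Elba2. Which promoter drives the fusion is not given in the sources used here, whole embryos mix all cell types, and no sample without the tag was analysed here, so there is no comparison between groups and no test.

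Elba2 is a BEN-domain protein and a subunit of ELBA, a complex of the early embryo that binds insulator DNA, and the site from the Fab-7 boundary of the bithorax complex is its best known target. Polycomb group proteins keep developmental genes, the Hox genes above all, off through generations of cells by ubiquitinating histone H2A (PRC1) and methylating histone H3 (PRC2). Trithorax group proteins keep such genes on by methylating other sites of histone H3 (COMPASS complexes) or by moving nucleosomes (the Brahma complexes). The values below concern Elba2 at the genes that encode these proteins, not at the genes these proteins act on.

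A gene is called bound where the summit of a peak in the authors' optimal set lay within 500 bp of any annotated transcription start site (TSS) of the gene. That set holds 3276 peaks, taken by the irreproducible discovery rate from the 3 replicates. It is identical to the strongest 3276 of the 28496 regions called on the 3 replicates pooled, the weakest with a signal of 109.0. Signal is the authors' value, of unstated scale, and serves only to rank regions within a list. Replicates 1, 2 and 3 have lists of their own with 29295, 30000 and 30000 regions, and the strongest 3276 of each are called its top regions. Reads were not used, so the depth is unknown.

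Elba2 peaks lay at the starts of 20 of the 38 genes (52.6%), against 17.9% of all coding genes. Enzymes of the opposing systems were among them, with E(z), the PRC2 methyltransferase, brm, the remodelling ATPase, and trx and ash1, histone methyltransferases of the Trithorax group. Pc, the chromodomain protein after which the Polycomb group is named, was not among them, nor were Sce, the ubiquitin ligase of PRC1, and trr and Set1, the other COMPASS methyltransferases. A top region lay at the start of 18, 19 and 18 of the genes in replicates 1, 2 and 3. This is 48.2% ± 1.52 of the 38 genes (SD, n = 3) against 17.4% ± 1.35 of all coding genes, whose shares were 18.7%, 17.4% and 16.0%. The shares for the 38 genes, 47.4%, 50% and 47.4%, thus lay above the share of all genes in each replicate. In all 3 replicates at once, 12 of the genes had a top region (31.6%), against 10.9% of coding genes. All 12 were among the 20 bound genes, but the optimal set was made from the same 3 replicates, so this is not independent agreement.

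The pooled list holds peaks and background together, so a region in it below rank 3276 is not by itself binding. It held a region within 500 bp of a TSS at 36 of 38 genes (94.7%), against 53.2% of coding genes, and Sce and Set1 were the exceptions. Among genes with such a region, 20 of 36 were bound (55.6%), against 33.6% of coding genes. The difference from other genes in the bound share was therefore smaller where only genes with some region were counted. The bound genes' strongest promoter peaks had a median rank of 1916.5 (14 to 3121), against 1455.0 for all bound coding genes. Counted once per peak and not per gene, optimal peaks at coding TSSs had a median rank of 1536.0. In the middle of the range the bound genes thus had somewhat weaker peaks than bound coding genes in general, with ph-p and fs(1)h far above.

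**Figure D1:**
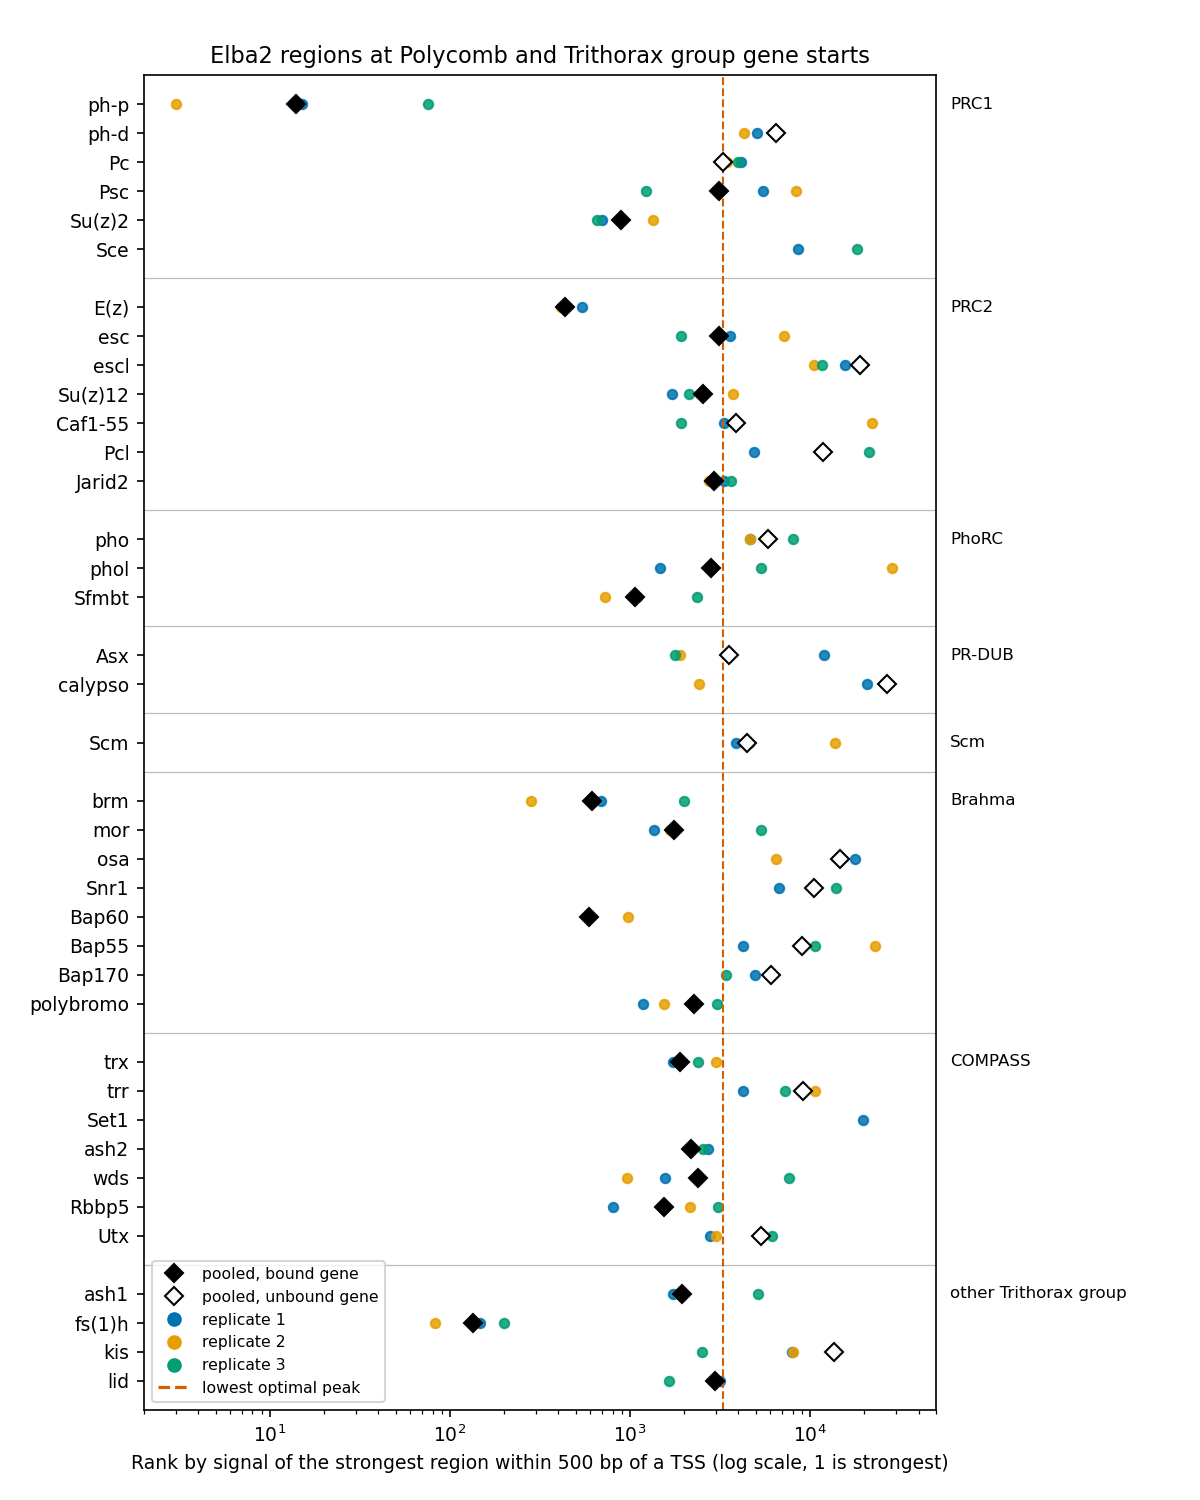
Rank by signal of the strongest region within 500 bp of a TSS of each gene, in the pooled list (diamonds, black where the gene was bound) and in replicates 1, 2 and 3 (dots), on a log axis where 1 is the strongest region; the dashed line marks rank 3276, the lowest optimal peak. ph-p and fs(1)h lie far to the left in all 3 replicates, and many genes lie on either side of the line within a spread of replicates that crosses it.

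PRC1 held the strongest peak of all 38 genes. ph-p encodes Polyhomeotic proximal, a PRC1 subunit whose SAM domain lets complexes join. Its stronger summit ranked 14 of 3276 with a signal of 786.1, and it ranked 15, 3 and 76 in replicates 1, 2 and 3. Its other summit ranked 297 with a signal of 334.0, and 192, 222 and 1350 in the replicates. Both were top regions of every replicate. The stronger one lay in an intron, 473 bp upstream of one of the gene's 3 TSSs, and the other lay 407 bp downstream of the outermost TSS, in the 5′ UTR. The replicate summits of the stronger peak fell within 23 bp of each other.

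ph-d, the tandem copy of ph-p on the X chromosome, was not bound. Its own start had pooled regions at ranks 6430 and 7946, with signals of 74.3 and 66.5, and no top region in any replicate. The spacer of 2923 bp between the copies held 1 optimal peak, which ranked 891 with a signal of 210.7, and 805, 1019 and 940 in the replicates. That peak lay 782 bp from the ph-d start, beyond the limit of 500 bp, so ph-d counted as bound only where the limit was set at 1000 bp. Since the copies are alike in sequence, words of 36 bases were counted across the genome. Of such words within 500 bp of the TSSs, 96.7% at ph-p and 96.3% at ph-d were found once, and at the summits of both ph-p peaks all were.

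The other paralogue pair of PRC1 was bound at both genes. Psc and Su(z)2 encode RING-finger proteins that compact chromatin, and the genes are divided by 15506 bp on chromosome arm 2R. Su(z)2 had 2 promoter summits, 205 bp upstream of its first TSS (rank 896, signal 210.1) and 49 bp downstream of the other TSS (rank 995, signal 200.3). The first ranked 860, 1342 and 889 in the replicates, and the other ranked 697, 26045 and 657, so that replicate 2 had only a weak region at the downstream site. Psc had a weaker promoter summit, 47 bp downstream of a TSS, with a rank of 3121 and a signal of 112.0. Psc ranked 5458, 8371 and 1225 in the replicates and was a top region in replicate 3 alone.

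The strongest peak of that locus lay at neither start. It was in the spacer, 4179 bp from the nearest coding TSS, that of Psc, with a rank of 224 and a signal of 369.5, and it ranked 110, 206 and 1026 in replicates 1, 2 and 3. It was thus a top region of each replicate and ranked above every promoter peak at Psc and Su(z)2 in the pooled list. Psc also had a pair of intron summits, 1088 and 5073 bp downstream of the nearest TSS, at ranks 2008 and 2944. In all, the span of 45915 bp from Psc to Su(z)2 with its edges held 6 optimal peaks among 25 pooled regions, and the ph span of 26645 bp held 3 among 13.

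**Figure D2:**
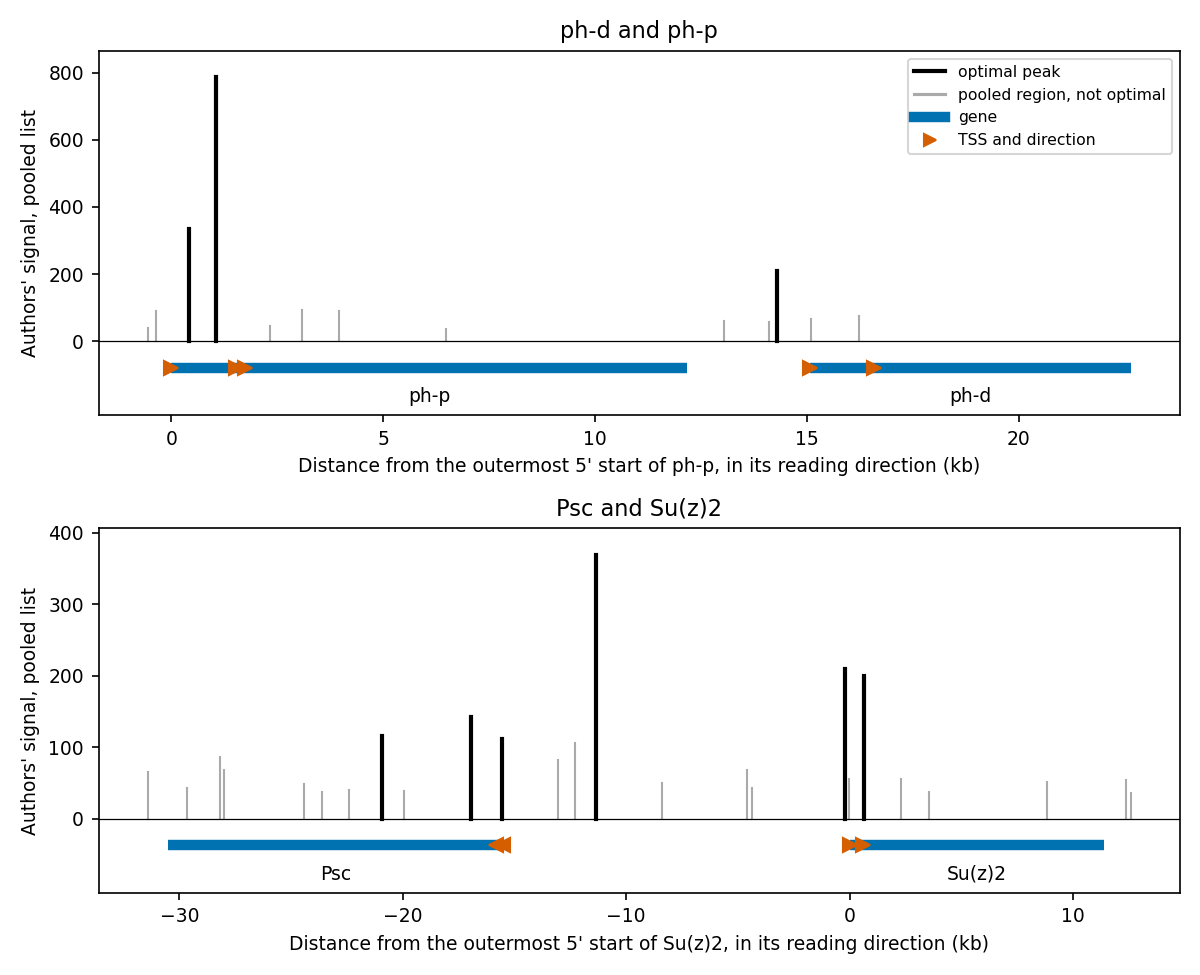
Signal of the pooled regions (height, the authors' value of unstated scale) along the ph-d and ph-p locus and the Psc and Su(z)2 locus, plotted as distance in kb from the outermost start of ph-p or Su(z)2 in its reading direction; black lines are optimal peaks, grey lines are weaker pooled regions, blue bars are genes and arrowheads are TSSs. The tallest line of the first locus, 786.1, stands inside ph-p, and the tallest of the other, 369.5, stands between the genes.

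The remaining PRC1 genes were not bound, but Pc came close. Pc had a pooled region 17 bp upstream of its TSS at rank 3299 with a signal of 108.2, just past the last optimal peak at rank 3276, and ranked 4107, 3474 and 3999 in the replicates. It was the unbound gene nearest to the limit. Sce had no pooled region at its start, and regions at ranks 8565 and 18196 in replicates 1 and 3.

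In PRC2, 4 of 7 genes were bound, and E(z) stood apart. The E(z) summit lay 53 bp downstream of a TSS in the 5′ UTR, with a rank of 433 and a signal of 286.9. The strongest region at that start ranked 543, 411 and 431 in replicates 1, 2 and 3, and its summit shifted by 36, -15 and -105 bp from the pooled one. It was the 1 PRC2 gene with a top region in all 3 replicates. esc, the WD-repeat subunit that the complex needs for its activity, ranked 3105 with a signal of 112.2, and ranked 3571, 7145 and 1915 in the replicates. Su(z)12, a core subunit, ranked 2533 (1703, 3716 and 2138 in the replicates), and Jarid2, which joins a form of the complex, ranked 2928 (3341, 2750 and 3649). These 3 genes had top regions in 1 or 2 replicates, and their peaks were near the bottom of the optimal set.

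The other PRC2 genes were escl (the paralogue of esc), Caf1-55 and Pcl, and they were not bound. escl, which can stand in for esc, had a pooled region at rank 18835 with a signal of 43.9, and its best rank in a replicate was 10551. Caf1-55, the histone-binding WD-repeat subunit that other chromatin complexes share, had a pooled region at rank 3861 and ranked 3335, 22029 and 1920 in the replicates. Pcl, a PHD-finger partner of PRC2, had a pooled region at rank 11762 and none in replicate 2.

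PhoRC brings Polycomb complexes to DNA. Sfmbt, its MBT-repeat subunit, had 2 summits at ranks 1065 and 2175 with signals of 195.0 and 137.2, and the strongest region at its start ranked 1093, 723 and 2365 in the replicates. The summits lay 208 bp apart, and in replicates 1 and 2 the same region was matched to both, so they may not be separate sites. phol, a paralogue of the zinc-finger protein gene pho, ranked 2804 with a summit 452 bp upstream of its TSS, and its start ranked 1471, 28659 and 5350 in the replicates. In replicate 2 a top region at rank 3031 lay 74 bp from the phol summit, just beyond the limit of 500 bp from the TSS. pho itself was not bound, with a pooled rank of 5852 and no top region. The deubiquitinase complex PR-DUB had neither gene bound. Asx, its regulatory subunit, had a pooled rank of 3529 and ranked 11897, 1890 and 1788, so that replicates 2 and 3 held top regions and replicate 1 did not. calypso, the deubiquitinase, had a pooled rank of 26768, a top region at rank 2423 in replicate 2 and no region in replicate 3. Scm, a SAM-domain protein linked to both PRC1 and PhoRC, had a pooled rank of 4482 and no top region.

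Among the Trithorax group genes, fs(1)h had the strongest peak. It encodes the BET-family bromodomain protein that reads acetylated histones. Its summit ranked 135 with a signal of 439.9, and 146, 83 and 199 in replicates 1, 2 and 3, close together in every list. It lay 267 bp upstream of an fs(1)h TSS and 58 bp from the TSS of mys, the beta integrin gene on the other strand. ash1 ranked 1940 (1740, 1876 and 5120 in the replicates), and lid, a histone demethylase for sites that COMPASS methylates, ranked 2978 (3157, 2902 and 1655 for the strongest region at its start). kis, a remodeller of the CHD family, was not bound and had a pooled rank of 13607, although replicate 3 held a top region at rank 2522.

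In the Brahma complexes 4 of 8 genes were bound. Bap60, a core subunit, ranked 595 with a signal of 255.6, and 576, 976 and 594 in the replicates, whose summits fell within 7 bp of each other. brm ranked 611 with a signal of 252.1, and 686, 281 and 2004 in the replicates. mor, the scaffold subunit, ranked 1745 (1364, 1662 and 5320), and polybromo, a subunit of the PBAP form, ranked 2257 (1179, 1537 and 3027). Bap60, brm and polybromo had top regions in all 3 replicates, and mor had them in 2. The unbound genes were Snr1 and Bap55, core subunits, osa, which defines the BAP form, and Bap170, which marks the PBAP form with polybromo. Bap170 was the nearest of these to the limit, at a pooled rank of 6064, and osa was the farthest, at 14682. Of the subunits that mark a form, polybromo was thus bound and osa and Bap170 were not, and no top region lay at the start of any of these 4 unbound genes in any replicate.

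In the COMPASS complexes 4 of 7 genes were bound, and they were the methyltransferase gene trx and 3 core subunits that the COMPASS complexes share. trx ranked 1893 with a signal of 147.2, and 1742, 3010 and 2372 in the replicates. ash2 ranked 2182 (2704, 2207 and 2531), and Rbbp5 ranked 1535 (800, 2144 and 3070). These 3 genes had top regions in all 3 replicates. wds, the WD-repeat core subunit, ranked 2380, and its start ranked 1565, 956 and 7670. In replicate 3 a region at rank 1671 lay within 200 bp of the wds summit but more than 500 bp from its TSS, so wds had a top region at its start in 2 replicates only. trr had a pooled rank of 9171, Set1 had no pooled region at its start, and Utx, the demethylase of the mark that E(z) sets, had a pooled rank of 5309. Utx nevertheless held top regions in replicates 1 and 2, at ranks 2781 and 2991, and ranked 6137 in replicate 3.

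The complexes are set side by side in the optimal set, but each has too few genes to call their bound shares alike or different. The bound genes were 3 of 6 in PRC1, 4 of 7 in PRC2, 2 of 3 in PhoRC, 4 of 8 in the Brahma complexes, 4 of 7 in COMPASS and 3 of 4 of the other Trithorax group genes. PR-DUB had 0 of 2 genes bound, and Scm, a single gene, was not bound. In the single replicates, 4.33 ± 1.15 of 7 COMPASS genes and 3.67 ± 0.577 of 8 Brahma genes had a top region, and 2.33 ± 0.577 of 6 PRC1 and 2.67 ± 1.15 of 7 PRC2 genes (SD, n = 3). PRC2 had 2, 2 and 4 genes with a top region in the replicates, and COMPASS had 5, 5 and 3. These ranges overlapped. The equal counts of PRC2 and COMPASS in the optimal set depended on the peak set. In regions shared by the top regions of the other replicates, PRC2 had 1, 2 and 1 bound genes without replicates 1, 2 and 3, and COMPASS had 4 each time. These sets were made without the irreproducible discovery rate. They hold 2114, 2165 and 2366 regions, fewer than the 3276 optimal peaks, so a replicate and the size of the set changed together. With only the strongest 1638 optimal peaks, PRC2 and COMPASS had 1 bound gene each. With optimal peaks among the top regions of all 3 replicates, PRC2 had 1 bound gene and COMPASS had 4. No test was made, since genes of 1 complex are not replicates. By chromosome arm, 7 of 9 genes on 3L were bound, 4 of 6 on X, 3 of 6 on 2L, 4 of 9 on 3R, 2 of 7 on 2R and 0 of 1 on 4. The bound share of all coding genes on each arm was not counted, so no difference between arms is read from these counts.

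Shared promoters were common among the bound genes. A divergent coding neighbour is a coding gene on the other strand that starts upstream within 500 bp. Such a neighbour stood at 20 of the 38 genes (52.6%), against 27.3% of coding genes, and these pairs were 13 of 20 bound genes (65.0%) and 7 of 18 unbound ones (38.9%). Over all coding genes, 60.7% of the bound ones had a divergent neighbour, so the bound genes of the group were near the level of bound genes in general. With a neighbour, 13 of 20 genes were bound (65.0%), against 39.7% of coding genes with one. Without a neighbour, 7 of 18 were bound (38.9%), against 9.65% of coding genes. The bound share of the group was thus above that of all coding genes with and without such a neighbour.

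A peak in such an interval belongs to both starts and cannot be assigned to either gene. Of the 23 promoter summits of the group, 14 (60.9%) lay within 500 bp of the TSS of another coding gene, against 42.7% of optimal peaks at coding TSSs. These shares differ in unit. The 42.7% counts each peak once, whereas the summits of the group were reached through genes, and a shared peak can be reached through more than 1 gene. This raises the share of shared summits, so the difference cannot be read as a trait of the group. These 14 summits belonged to 13 genes, and 10 of them were nearer to the neighbour's TSS. The Rbbp5 summit lay 408 bp upstream of Rbbp5 and 5 bp from the start of eRF1, the translation release factor. The phol summit lay 415 bp from CG3552, the wds summit 127 bp from CG13760, and the Bap60 summit 62 bp from CG12096. The fs(1)h summit was nearer to mys, as given above. The strongest summit stood between both starts in 7 of the 13 bound pairs and in 1 of the 7 unbound pairs. In the unbound pairs that summit was of a pooled region outside the optimal set, which is not by itself binding. The share over all divergent coding pairs was not counted, so no difference between bound and unbound pairs is read from these counts.

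The intervals themselves were short, with a median gap of 209.0 bp (16 to 413) in the bound pairs and lengths of 51 to 470 bp in the unbound ones. The brm summit lay nearly midway, 134 bp from brm and 132 bp from Arl1, an Arf-like GTPase gene. The ash2 summit lay 50 bp from ash2 and 32 bp from puf, a ubiquitin protease gene, and the Jarid2 summit 50 bp from Jarid2 and 23 bp from Uch-L5, the gene of a deubiquitinase of the proteasome. The other pairs were Su(z)12 with Pfdn6, a prefoldin subunit (61 bp from the summit), mor with Hel89B (258 bp), ash1 with Taf6, a TFIID subunit (262 bp), E(z) with Cnep1r2 (69 bp), and Sfmbt with CG43925 and CG5439. The mor, ash1, E(z) and stronger Sfmbt summits were nearer to the gene of the group than to the neighbour.

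**Figure D3:**
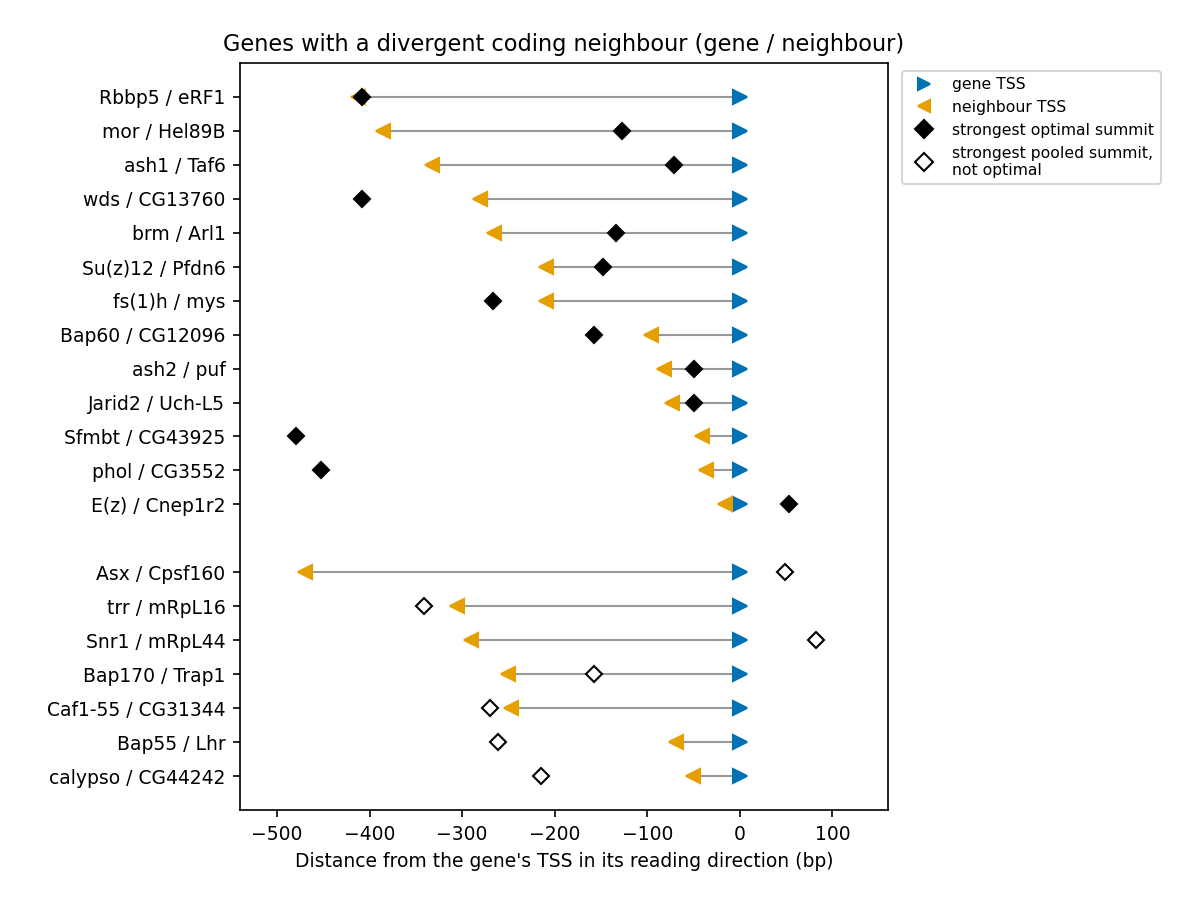
Positions of the start of each gene that has a divergent coding neighbour (right arrowhead, set to 0), of the neighbour's start (left arrowhead) and of the strongest summit (diamond, black where it is an optimal peak), in bp along the reading direction of the gene; bound genes are above the gap and unbound ones below. For genes with several starts, the start that faces the neighbour is used, so the Sfmbt summit, 76 bp from another Sfmbt start, is drawn farther away. In 7 of the 13 bound pairs the diamond stands between the arrowheads.

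The 7 bound genes with no neighbour of that kind were ph-p, Psc, Su(z)2, esc, polybromo, trx and lid. Their peaks could be set against 1 coding gene's starts. trx and lid had summits 19 and 20 bp upstream of a TSS, the shortest distances of the group. In lid, the summits of all 3 replicates at that site fell within 2 bp, although the region ranked 3157, 20261 and 1655. The polybromo summit lay 110 bp inside the gene, in a coding exon, and its replicate summits spread over 185 bp. Over the 23 promoter summits the distance to the gene's TSS had a median of 127.0 bp (19 to 473), 18 lay upstream, and the SD of the 3 replicate summits had a median of 47.5 bp (1.15 to 142.6). All 23 had a region within 200 bp in each replicate. The upstream count and this one were not made over all promoter peaks, so neither is read as a trait. Of the 23, 13 were top regions of all 3 replicates, 7 of 2 and 3 of 1. Of all 3276 optimal peaks, 1844 were among the top regions of all 3 replicates, a share near that of the 23.

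The sequences under the summits were read to see which known words they hold. CCAATAAG, the ELBA site, CCAATTGG, a palindrome known as the site of the BEN-domain factor Insensitive, GGTCACAC for the promoter factor M1BP, TATCGATA for the factor DREF and GAGAGAG for GAGA factor were looked for on either strand in the 100 bp to each side of a summit. The ELBA site was at 0 of the 23 promoter summits, against 4.77% of the 1927 optimal peaks at coding TSSs. At that share about 1 of 23 would hold it, so its absence here does not set the group apart. The palindrome was at 1 (fs(1)h), against 7.63%. The M1BP site was at 3 (trx, ash1 and lid), against 10.6%, the DRE at 2 (Sfmbt and Rbbp5), against 8.51%, and the GAGA repeat at 2 (the Psc summit and the upstream summit of its partner), against 3.84%. None of the 5 words was at the other 15 summits, those of ph-p, E(z), Bap60 and brm among them. The share of all promoter peaks with none of the words was not counted, so this is not read as a trait of the group.

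Sequences of dm6, the Release 6 genome, are printed for ph-p and brm, strong summits without a word, for the 6 summits with the palindrome, the M1BP site or the DRE, and for mor, whose near match is described further on. All are given 5′ to 3′ on the minus strand, in which these genes are read. The stretches are those outside annotated exons within 100 bp of the summit, or 30 bases around the word where it lay in or beside an exon. In ph-p and brm the capitals mark the 11 bases centred on the summit. In the others they mark the word, which is the palindrome in fs(1)h, the M1BP site (on either strand) in trx, ash1 and lid, the DRE in Sfmbt and Rbbp5, and CCAATAGG in mor.
ph-p, chrX:2137228-2137428: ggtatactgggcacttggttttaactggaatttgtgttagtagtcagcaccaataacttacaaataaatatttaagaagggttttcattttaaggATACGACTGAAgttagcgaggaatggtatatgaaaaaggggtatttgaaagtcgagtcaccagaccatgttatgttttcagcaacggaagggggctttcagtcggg
brm, chr3L:15982903-15983103: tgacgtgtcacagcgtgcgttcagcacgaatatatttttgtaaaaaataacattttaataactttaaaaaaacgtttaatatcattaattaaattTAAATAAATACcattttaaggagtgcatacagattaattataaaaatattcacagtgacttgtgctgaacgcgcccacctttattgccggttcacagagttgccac
fs(1)h, chrX:8061751-8061780: gctgaaggccgCCAATTGGtgtcgggaatt
mor, chr3R:15972940-15973140: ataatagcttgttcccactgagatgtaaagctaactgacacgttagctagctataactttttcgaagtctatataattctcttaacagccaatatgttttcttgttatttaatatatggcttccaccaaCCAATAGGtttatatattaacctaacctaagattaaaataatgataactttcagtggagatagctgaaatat
trx, chr3R:14286904-14287022: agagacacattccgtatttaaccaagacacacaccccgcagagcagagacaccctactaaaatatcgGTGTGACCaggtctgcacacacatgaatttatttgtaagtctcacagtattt
ash1, chr3L:19598756-19598926: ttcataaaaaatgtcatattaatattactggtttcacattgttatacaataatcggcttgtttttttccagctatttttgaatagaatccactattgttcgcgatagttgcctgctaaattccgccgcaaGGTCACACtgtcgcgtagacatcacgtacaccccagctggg
lid, chr2L:5999451-5999480: cttcgacgacgGGTCACACtggacacatgt
Sfmbt, chr2L:13176869-13176898: tattgtacactTATCGATAacaatcactct
Rbbp5, chr3L:20348250-20348354: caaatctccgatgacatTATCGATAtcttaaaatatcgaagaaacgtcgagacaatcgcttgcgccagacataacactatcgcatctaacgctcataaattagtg

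The words stood at differing distances from the summits. The centre of the palindrome at fs(1)h lay 62.5 bp from the summit, the M1BP site 29.5 bp from it at trx, 33.5 bp at ash1 and 55.5 bp at lid, and the DRE 22.5 bp at Sfmbt and 16.5 bp at Rbbp5. In the window from 250 bp upstream to 50 bp downstream of a TSS, the M1BP site was in 6 of 20 bound and 2 of 18 unbound genes (30% and 11.1%), against 7.53% of coding genes. The DRE was in 2 of 20 bound and 3 of 18 unbound genes, against 8.95%. Bound genes thus held the M1BP site more often and the DRE less often than unbound ones in this window, in counts too small to go further.

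Words that differ from the ELBA site or the palindrome by 1 base were searched after the sequences had been seen. Positions are counted from 1 at the 5′ end of the word. mor held CCAATAGG, which is 1 base from the ELBA site (A7G) and also 1 base from the palindrome, so it cannot be assigned to either. It was found at 2.49% of the 1927 promoter peaks and at 0.0778% of their flanks, windows of the same width centred 500 bp to either side. The word lay 32.5 bp from the mor summit. ph-p held CCAATAAC (G8C from the ELBA site), found at 0.830% of promoter peaks and 0.649% of flanks. Its presence at the strongest summit of the group was thus near the level of flanking sequence. Rbbp5 held ACAATTGG (C1A from the palindrome), found at 2.80% and 0.493%. The remaining near matches were at phol, Sfmbt, mor, lid and Su(z)2, each with a word found at 1.76% of promoter peaks or fewer. The phol word was at 1.71% of promoter peaks and 0.597% of flanks, and the Su(z)2 word at 1.76% and 1.06%. The lid word was at 0.727% and 0.259%, and the word of Sfmbt and mor at 0.675% and 0.389%.

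Peaks inside the gene bodies were fewer. With 500 bp around each TSS left out, 5 of 38 genes (13.2%) held an optimal summit in the body, against 5.86% of coding genes, and they were Psc, osa, Snr1, trx and Set1. The genes of the group are long, with a median of 6167.0 bp against 2164.5 bp for coding genes. Per 10 kb of body they held 0.241 summits, from 7 summits in all, against 0.125 for coding genes. Bound and unbound genes of the group held 0.270 and 0.212 per 10 kb, against 0.208 and 0.104 for bound and unbound coding genes. Leaving out a replicate brought the count to 2, 2 and 3 genes (5.26%, 5.26% and 7.89%, without replicates 1, 2 and 3), against 4.31%, 4.04% and 4.32% of coding genes. Snr1 alone was counted each time. osa, unbound at its start, had a body summit at rank 827 with a signal of 217.4, 13954 bp from its TSS and in an exon of the long noncoding RNA CR46035. It ranked 749, 693 and 4885 in the replicates. Snr1 had an intron summit 790 bp from its TSS at rank 862 with a signal of 214.6, which was a top region in all 3 replicates (660, 1384 and 1494). These were the strongest body summits of the group, and both genes counted as unbound at their starts.

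trx had 2 intron summits, 2993 and 8887 bp from its TSS, and both had a GAGA repeat within 100 bp. The farther one ranked 1384 with a signal of 174.3 (914, 889 and 11959 in the replicates), above the trx promoter peak in the pooled list. The nearer one ranked 2825 (2085 and 1343 in replicates 1 and 2), with no region within 200 bp in replicate 3. Set1 had a summit at rank 2391 in a coding exon (3669, 3019 and 2018), 5278 bp from its TSS. With promoter and body summits together, 23 of the 38 genes held an optimal summit (60.5%), against 21.8% of coding genes.

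Bound and unbound genes were alike in length. The median was 6215.0 bp for the 20 bound genes and 6167.0 bp for the 18 unbound ones. Several TSSs, which widen the window searched, were annotated at 9 of the bound and 5 of the unbound genes. Among coding genes they were annotated at 965 of 2495 bound and 2734 of 11473 unbound ones. In all, 14 of the 38 genes had several TSSs, against 3699 of 13968 coding genes. The bound share of the group was not adjusted for this. The pooled ranks of the unbound genes with a region ran from 3299 to 26768, with a median of 7713.0. Of the 18, 13 had no top region in any replicate. The 5 with one were Caf1-55, Asx, calypso, Utx and kis, and none had one in all 3.

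Just inside and just outside the limit the genes differed little. Psc, esc and lid, the lowest of the bound genes, had signals of 112.0, 112.2 and 115.0. Pc, Asx and Caf1-55, the highest of the unbound ones, had signals of 108.2, 104.2 and 99.1. In replicate 2 Pc, at rank 3474, stood above Psc and esc, at 8371 and 7145, so the order at the limit was not kept in each replicate.

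The number of bound genes depended most on which peaks were counted. Between 8 (only the strongest 1638 optimal peaks) and 22 genes (a limit of 1000 bp) were bound under 9 alternatives, or 21.1% to 57.9%, and coding genes then stood at 10% and 21.0%. The share for the 38 genes was above that of coding genes in every one of these. Without replicate 1, 2 or 3, that is with regions shared by the top regions of the other replicates, 13, 14 and 15 genes were bound, against 11.6%, 12.4% and 13.8% of coding genes. Su(z)2, E(z), Sfmbt, brm and Bap60 were bound under all 9 alternatives. ph-p and fs(1)h dropped out at 250 bp and where the peak had to cover the TSS, because their summits lay 473, 407 and 267 bp from a start. Psc, esc and Jarid2 were lost whichever replicate was left out. This follows from their having a top region in 1 replicate only, since a region had to be shared by both other replicates.

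**Figure D4:**
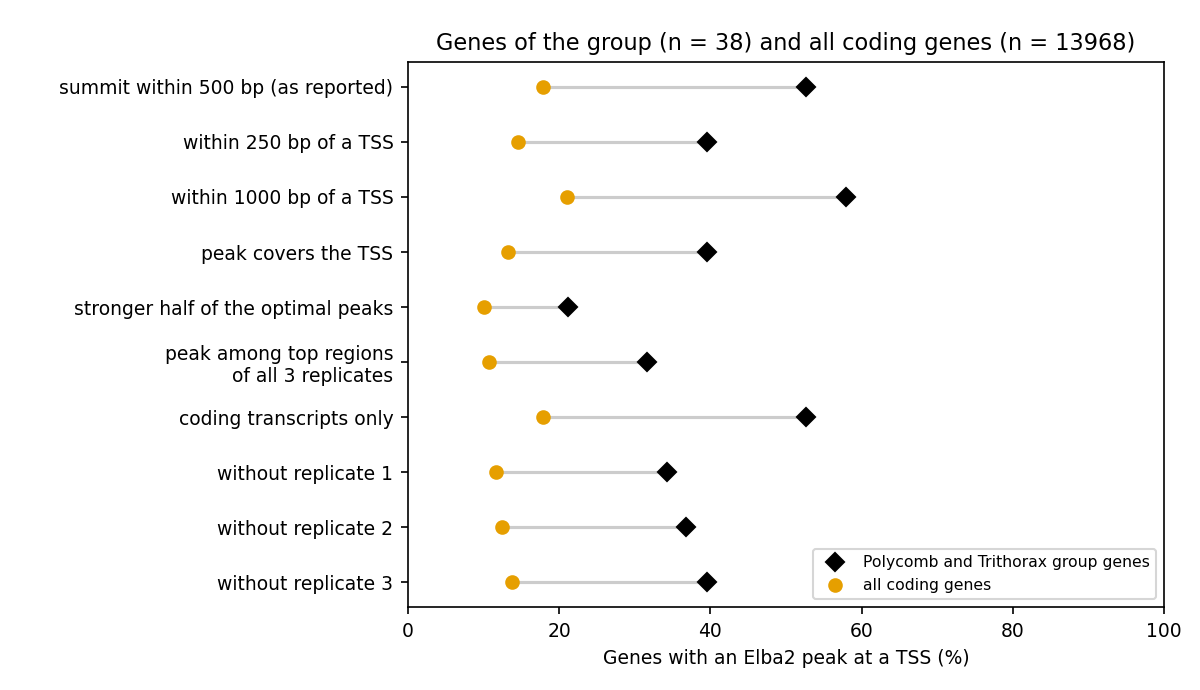
Percent of the 38 genes (diamonds) and of all 13968 coding genes (circles) with an Elba2 peak at a TSS, under the reported setting and 9 alternatives. The diamonds run from 21.1% to 57.9% and lie to the right of the circles in each row.

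Further genes of the same pathways, outside the 38, were bound at a lower share. Of 42 such genes, 15 were bound (35.7%), against the 17.9% of coding genes given above. Without replicates 1, 2 and 3 the count was 7, 8 and 12 (16.7%, 19.0% and 28.6%), against 11.6%, 12.4% and 13.8% of coding genes. With peaks among the top regions of all 3 replicates it was 5 (11.9%), close to the 10.7% of coding genes. Among factors that bind Polycomb response elements, 3 of 7 were bound, namely Trl, the GAGA factor gene (rank 2881), psq (rank 2165) and cg (rank 1356), while Dsp1, Spps and grh were not. Of the accessory COMPASS genes 4 of 9 were bound, with Mnn1, the menin gene, at rank 126 with a signal of 448.4 (133, 278 and 67 in the replicates), just above fs(1)h. Dpy-30L1, Hcf and Pa1 were the others. None of 4 further genes of the Brahma complexes was bound (Bap111, BCL7-like, e(y)3 and tth).

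Of the other groups, variant PRC1 had 1 bound gene of 3 (l(3)73Ah, rank 1498), the remodelling ATPase complexes 3 of 7 (Chd1, Mi-2 and pont), and the demethylases 2 of 3 (Kdm4B and Su(var)3-3). Of 9 modifier genes, kto and mxc were bound, and mxc ranked 601 with a signal of 254.7.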

How the data were processed

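Elba2-eGFP was immunoprecipitated in 3 biological replicates. The labels give sonication and a fragment size of 200 to 800 bp, which sets how far a summit can lie from the contact. The deposited files hold peaks. Per the notes deposited with them, peaks and background were called with a control library in every replicate alone and in the pooled replicates, and the optimal set came from the irreproducible discovery rate. Which aligner, peak caller and threshold were used is not given in the sources used here. The control library was not analysed here. The authors' signal value, of unstated scale, ranked regions within a list. The deposited −log10 q-value broke ties and gave 1 alternative ranking. The deposited summit offset, a position and not a measurement, gave the summit. The lists on dm3 were not used. Depth is unknown because reads were not used.

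From these files, summits were assigned to genes of Ensembl release 115 (BDGP6.54, Release 6 genome) with Python 3.11.15 and numpy 2.4.6, on dm6 in 1-based coordinates. Summits no more than 200 bp apart were taken as 1 site. Gene bodies leave out 500 bp around each TSS. Replicates were compared at their strongest 3276 regions. No test was run, since there is 1 group and genes are not replicates. The functions were tested on simulated data. The 38 genes, the 42 related genes, the words and the alternatives were chosen with earlier results of these data known. Every one of the 38 genes is named, as are every coding gene within 500 bp of their promoter summits and the bound related genes. Unbound related genes are named, up to 3 per group in alphabetical order, only for the response element and Brahma groups. Genes named beyond this (tth) were added after their values were seen.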

Additional observations from a re-analysis of the deposited data

How the results depend on the processing

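Alternatives changed the distance to the TSS, the peak set, the transcripts and the replicates used. With the strongest 1638 optimal peaks, 8 genes of the 38 were bound, namely 2 in PRC1, 1 in PRC2, 1 in PhoRC, 2 in the Brahma complexes, 1 in COMPASS and 1 of the other Trithorax group genes, with 8 related genes bound and 3 genes with a body summit. With peaks among the top regions of all 3 replicates, 12 of the 38 genes and 5 related genes were bound, with 1 in PRC2, 1 in PhoRC and 1 of the other Trithorax group genes. At 250 bp, and where the peak covers the TSS, 1 PhoRC gene and 2 COMPASS genes were bound. Counting whole gene bodies gave 9 genes with a body summit. Leaving out each replicate in turn gave 13 to 15 bound genes, 1 to 2 in PRC2, 1 to 2 in PhoRC, 0 to 1 in PR-DUB, 1 to 2 of the other Trithorax group genes, 7 to 12 related genes and 2 to 3 genes with a body summit. The PR-DUB gene was Asx, without replicate 1. With only the 1638 strongest regions of a replicate, 9.00 genes on average had one at a TSS.

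For the words, a window of 200 bp gave 1 summit with the ELBA site, 5 with the M1BP site and 5 with the DRE, and one of 50 bp gave 0 with the palindrome. Among the strongest 1638 peaks, 0 summits held the M1BP site and 1 the GAGA repeat. The causes of these shifts were not tested. No paired analysis was possible because there is 1 group.

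What limits these counts is the unknown depth, the absence of an untagged sample here, and the closeness of several genes to the limit of the optimal set. Of 18 unbound genes, 15 stayed unbound under all 9 alternatives, and 5 of 20 bound genes stayed bound under all.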
